A study of Homo sapiens with 6 samples.

Results

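Actin and a group of proteins that bind it were followed through ribosome profiling of HEK293T, a widely used cell line derived from human embryonic kidney that carries SV40 large T antigen. The 10 genes were taken by name from a table of 60420 genes: ACTB and ACTG1, which encode the cytoplasmic β- and γ-actins, and 8 actin binders, FSCN1, CFL1, PFN1, FLNA, MYH9, ACTN1, ACTN4 and TPM3. The genes were chosen by the low FSCN1 footprint level in the library labelled PRMT1 inhibitor, set against other actin binders. The position of FSCN1 is therefore a description, and nothing is supported with it. Cells had been treated with an inhibitor of the arginine methyltransferase PRMT1, with an inhibitor of PRMT4, also known as CARM1, or with DMSO, the vehicle. Which compounds were used, at what dose and for how long, is not in the labels. Every treatment has 1 input, read as the level of RNA, and 1 footprint library made from the fragments that ribosomes protect. With 1 library per group no difference has a replicate check, and no test was made.

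Actin monomers assemble into filaments that carry cell shape, adhesion and contraction. Profilin delivers monomers to growing ends and cofilin severs old filaments, while fascin, filamin and α-actinin tie filaments into bundles and networks, tropomyosin runs along their sides and non-muscle myosin pulls on them. Many actin genes are switched on by the transcription factor SRF, whose MRTF cofactors are held back by free actin monomers. Cells therefore tend to make more actin as their monomer pool shrinks.

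Between 30576 and 30860 genes were above 0 in the inputs and between 20485 and 21161 in the footprints. Levels are TPM, a per-length measure that sums to the same total in every library, so sequencing depth is unknown and no counting interval could be given. Protein-coding genes encoded in the nucleus held 38.7% of TPM in the PRMT1-labelled input, 33.4% in the PRMT4-labelled input and 45.6% in the DMSO input, and 62.3%, 70.6% and 74.3% in the footprints in the same order. VIM, the vimentin gene that these cells express, stood between 104 and 208 TPM, and the other 5 of 6 markers of the line, NEFL, NEFM, PAX2, SOX2 and NES, reached at most 7.0 TPM. None of the 6 matched markers of other cell types went above 3.82 TPM. Across the 9040 tested genes, the difference between the inhibitor labels in footprints ran against that in input (Pearson r = -0.31, Spearman rho = -0.40). These genes share 4 libraries and are not independent. Whether the inhibitor labels of the inputs or of the footprints were exchanged was not tested and cannot be settled from these files. Libraries are therefore named by their labels, and most translation efficiencies below are also given over the input of the other inhibitor label. A gene was compared, and counts among the tested genes, where its mean TPM over the 6 libraries was at least 5, which all 10 genes passed. Every log2 ratio was taken after adding 1 TPM and is relative to the median tested gene, so that 50% of tested genes lie below 0 by construction.

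Together the 10 genes held 10070 TPM of the footprints labelled PRMT1 inhibitor, 12034 TPM of those labelled PRMT4 inhibitor and 13902 TPM of the DMSO footprints. In input they held 3032 TPM, 3129 TPM and 4343 TPM in the same order. In TPM the inhibitor libraries were thus below DMSO in both fractions. As a share of all nuclear protein-coding TPM, a scale that does not depend on how much structured RNA a library held, the group made up 1.62%, 1.70% and 1.87% of footprints and 0.784%, 0.936% and 0.952% of input. On that scale the input labelled PRMT4 inhibitor was close to DMSO. In bulk libraries fewer cells that express a gene cannot be told apart from less RNA per cell.

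**Figure D1:**
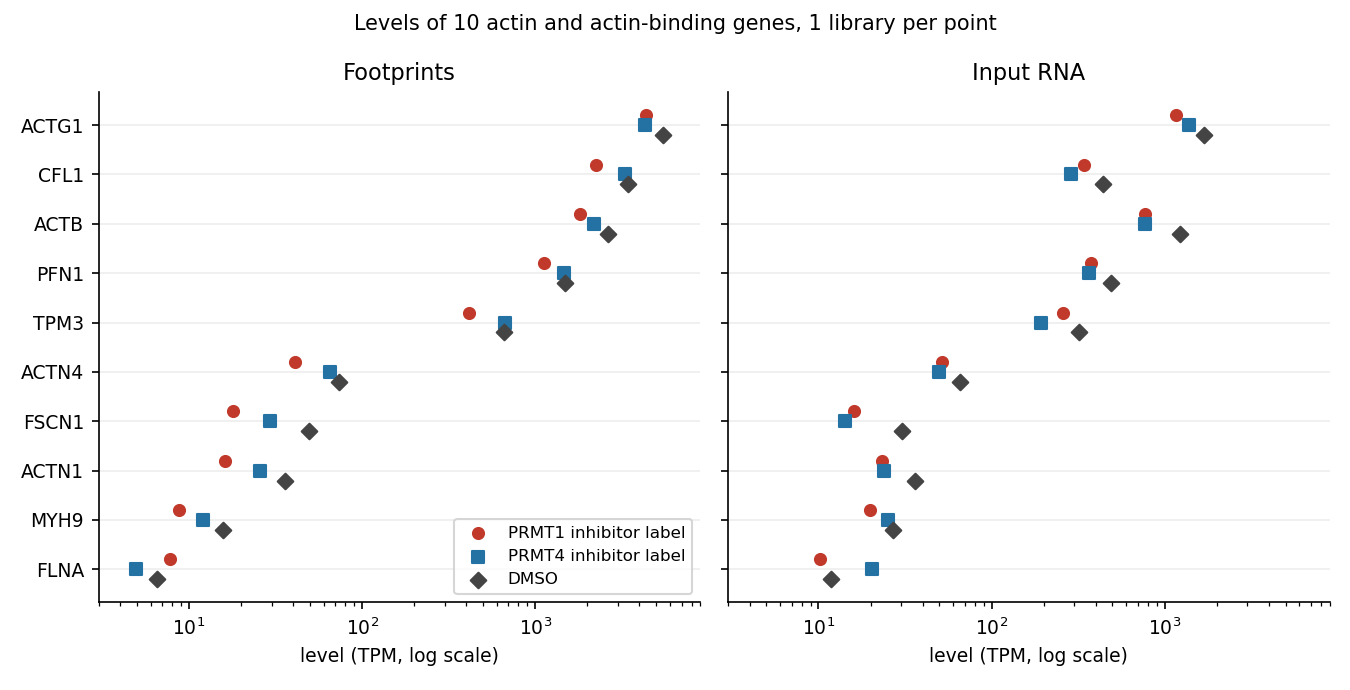
Level in TPM on a log scale of each of the 10 genes, in footprints (left) and input RNA (right); each point is 1 library, labelled PRMT1 inhibitor, PRMT4 inhibitor or DMSO. FSCN1 footprints stand at 17.9, 29.2 and 49.4 TPM, and FLNA is the one gene whose highest input value is that labelled PRMT4 inhibitor.

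In DMSO footprints the genes spanned a wide range of levels. ACTG1 was highest at 5499 TPM, followed by CFL1 at 3437 TPM, ACTB at 2633 TPM, PFN1 at 1496 TPM and TPM3 at 658 TPM. The remaining binders were lower: ACTN4 at 73.1 TPM, FSCN1 at 49.4 TPM, ACTN1 at 35.7 TPM, MYH9 at 15.7 TPM and FLNA at 6.55 TPM. The order in DMSO input was ACTG1, ACTB, PFN1, CFL1, TPM3, ACTN4, ACTN1, FSCN1, MYH9 and FLNA, at 1687, 1228, 493, 442, 321, 65.9, 36.4, 30.5, 27.1 and 11.9 TPM. Neighbours such as PFN1 and CFL1, or FSCN1 and MYH9, cannot be ranked beyond their spread, which a single library does not give.

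The footprint level over the input level within DMSO differed widely among the genes. Cofilin, CFL1, had a footprint TPM 7.77 times its input TPM, and the same ratio was 3.26 for ACTG1, 3.03 for PFN1, 2.14 for ACTB, 2.05 for TPM3 and 1.62 for FSCN1. ACTN4 at 1.11 and ACTN1 at 0.982 lay near 1, and the long crosslinker FLNA at 0.553 and the motor MYH9 at 0.579 lay below it. Relative to the median tested gene, CFL1 (2.87), ACTG1 (1.62), PFN1 (1.51) and ACTB (1.01) were at least 2-fold higher, 4 of 10 against 16.4% of all tested genes. With a lowess trend on level removed (share of tested genes not computed), CFL1 alone was 2-fold higher (2.09) and the median of the group was 0.19. None was at least 2-fold lower relative to the median tested gene, against 19% of tested genes. After rescaling to nuclear protein-coding genes the median of the group was 0.16 in place of 0.77, and FSCN1 stood at -0.01 in place of 0.59. FLNA was then more than 2-fold lower (-1.46), and MYH9 reached -1.45 in its lowest alternative. The share of tested genes that low after rescaling was not computed. The coding sequence measures 423 bases in PFN1 and 615 in CFL1, against 5883 in MYH9 and 7944 in FLNA. After adjustment for GC content and length FLNA stood at -0.20 in place of -0.85 and MYH9 at -0.24 in place of -0.84. The sources used here do not say how untranslated regions entered the authors' lengths.

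The actins are alike enough that some short fragments could come from either. Their coding sequences in GENCODE release 29, each of 1128 bases, are identical at 1029 positions (91.2%), and the longest stretch without a difference runs for 59 bases, from base 832 to base 890 of the coding sequence. That stretch is shown because a footprint from it could belong to either gene.
ACTB and ACTG1, shared: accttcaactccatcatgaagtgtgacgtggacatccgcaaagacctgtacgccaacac
The first 60 bases are shown because they hold differences at 10 positions, which are in capitals.
ACTB, start of coding sequence: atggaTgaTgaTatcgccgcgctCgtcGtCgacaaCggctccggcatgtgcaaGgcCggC
ACTG1, start of coding sequence: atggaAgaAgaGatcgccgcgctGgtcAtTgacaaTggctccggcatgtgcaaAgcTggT
Of all 28-base windows of the coding sequence, a length close to that of a footprint, 54.0% of those in ACTB and 38.6% of those in ACTG1 also occur exactly in a transcript of some other gene, mostly processed pseudogenes. Each shares 103 of 1101 windows (9.36%) with the other. Among the binders the share of such windows was 40.2% in PFN1, 34.3% in TPM3, 28.3% in FSCN1, 23.0% in CFL1 and 14.8% in ACTN4, and it was at most 3.76% in ACTN1, MYH9 and FLNA. The split between ACTB and ACTG1 therefore depends in part on how the authors' software placed reads that they share. Their sum does not depend on that, but like each gene it depends on how reads shared with further genes were placed.

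ACTB, β-actin (ENSG00000075624.13_3, chromosome 7), stood at 1807 TPM in footprints labelled PRMT1 inhibitor, 2176 TPM in those labelled PRMT4 inhibitor and 2633 TPM in DMSO footprints. Its input levels were 770, 773 and 1228 TPM in the same order. Both inhibitor labels were lower than DMSO in both fractions, and the 2 inhibitor inputs were nearly equal. The log2 ratios were -0.40 and -0.27 in footprints and -0.51 and -0.30 in input, for the PRMT1 and the PRMT4 label.

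ACTG1, γ-actin (ENSG00000184009.9_3, chromosome 17), stood at 4388 TPM in footprints labelled PRMT1 inhibitor, 4300 TPM in those labelled PRMT4 inhibitor and 5499 TPM in DMSO footprints, with input levels of 1163, 1377 and 1687 TPM. Its input labelled PRMT4 inhibitor had a log2 ratio of 0.07, which lay at -0.29 without centring, so no direction is given there. The other ratios were -0.38 in the input labelled PRMT1 inhibitor, and -0.18 and -0.35 in footprints of the PRMT1 and PRMT4 labels. Summed, the actins held 6195 TPM, 6476 TPM and 8132 TPM of footprints for PRMT1 label, PRMT4 label and DMSO, and 1932, 2150 and 2915 TPM of input. The ratio of ACTB to ACTG1 was 0.412, 0.506 and 0.479 in footprints and 0.662, 0.561 and 0.728 in input, again for PRMT1 label, PRMT4 label and DMSO. ACTB was thus the smaller part in all 6 libraries, and the inhibitor labels lay on opposite sides of DMSO in footprints.

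The turnover factors come next. CFL1, cofilin (ENSG00000172757.12_3, chromosome 11), which severs and depolymerises filaments, stood at 2242 TPM in footprints labelled PRMT1 inhibitor, 3300 TPM in those labelled PRMT4 inhibitor and 3437 TPM in DMSO footprints, with 343, 286 and 442 TPM of input. PFN1, profilin (ENSG00000108518.7_2, chromosome 17), which binds monomers, stood at 1125, 1456 and 1496 TPM of footprints and 378, 366 and 493 TPM of input. In both genes the footprints labelled PRMT4 inhibitor were close to DMSO, at 96.0% for CFL1 and 97.4% for PFN1, while those labelled PRMT1 inhibitor stood at 65.2% and 75.2% of DMSO. In TPM the inputs of both labels were below DMSO. Relative to the median gene, PFN1 in the input labelled PRMT4 inhibitor stood at -0.06, and at 0.02 after rescaling to nuclear protein-coding genes. The log2 ratios for the PRMT1 label were -0.47 and -0.26 in footprints and -0.21 and -0.22 in input.

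FSCN1, fascin (ENSG00000075618.17_2, chromosome 7), packs actin filaments into the tight parallel bundles of filopodia. It stood at 17.9 TPM in footprints labelled PRMT1 inhibitor, 29.2 TPM in those labelled PRMT4 inhibitor and 49.4 TPM in DMSO footprints. Its input levels were 16.1, 14.3 and 30.5 TPM in the same order. Both inhibitor inputs were close to 50% of the DMSO level, at 52.7% and 46.8%, and the footprints stood at 36.2% and 59.1%. The log2 ratios were -1.27 and -0.73 in footprints and -0.72 and -0.68 in input, for the PRMT1 and PRMT4 labels. Adjusted for GC content and length, the input ratios were -0.60 and -0.82. Of the 9040 tested genes, 14 had a lower ratio than FSCN1 in footprints labelled PRMT1 inhibitor, 72 in those labelled PRMT4 inhibitor, 36 for the input with the PRMT1 label and 153 for the input with the PRMT4 label. Within a fraction both comparisons use the same DMSO library.

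FSCN1 has one processed pseudogene, FSCN1P1, which shares 412 of 1455 coding windows of 28 bases with it (28.3%). FSCN1P1 reached at most 0.06 TPM, among PRMT4-labelled footprints, with 0 listed for the other 5 libraries. The related fascins FSCN2 and FSCN3 stayed at or below 0.13 TPM, so FSCN1 was the one fascin that passed the filter.

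FLNA, filamin A (ENSG00000196924.14_2, chromosome X), crosslinks filaments into gels and anchors membrane proteins to them. Its footprints stood at 7.76 TPM for the PRMT1 inhibitor label, 4.91 TPM for the PRMT4 inhibitor label and 6.55 TPM for DMSO. Its input stood at 10.2, 20.4 and 11.9 TPM in the same order. FLNA was the exception in the group. The input labelled PRMT4 inhibitor was 172% of DMSO (log2 ratio 1.10), while the footprints with that label were 75.0% of DMSO (-0.35). Under the PRMT1 label the input was 85.7% of DMSO (-0.04) and the footprints were 118% (0.36). The input ratio of the PRMT4 label was below 2-fold when adjusted for GC content and length (0.83) and with a pseudocount of 5 TPM (0.88). It was below 2-fold without centring (0.73) and with no filter (0.76) as well. FLNA has the longest coding sequence of the 10 genes and its transcript holds 62.2% G and C, and its footprint level was the lowest of the group. The part that length, base content and level had in the result was not tested further.

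The α-actinins crosslink filaments as antiparallel dimers, ACTN1 (ENSG00000072110.13_4, chromosome 14) and ACTN4 (ENSG00000130402.11_3, chromosome 19) being the non-muscle forms. ACTN1 stood at 16.2 TPM in footprints labelled PRMT1 inhibitor, 25.8 TPM in those labelled PRMT4 inhibitor and 35.7 TPM in DMSO footprints, with 23.3, 24.0 and 36.4 TPM of input. ACTN4 stood at 40.8, 65.3 and 73.1 TPM of footprints and 51.8, 49.7 and 65.9 TPM of input. After FSCN1, ACTN1 had the lowest footprint ratio of the group for the PRMT1 label (-0.95) and for the PRMT4 label (-0.45). ACTN4 was at -0.68 and -0.16. The ratio of ACTN1 to ACTN4 was 0.396 in footprints of either inhibitor label against 0.488 in DMSO footprints, and 0.450 and 0.484 in the inhibitor inputs against 0.552 in the DMSO input. ACTN1 was therefore the lower of the α-actinins relative to DMSO in all 4 inhibitor libraries.

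TPM3, a tropomyosin (ENSG00000143549.19_3, chromosome 1) that lies along the filament and sets which proteins reach it, stood at 416 TPM in footprints labelled PRMT1 inhibitor, 665 TPM in those labelled PRMT4 inhibitor and 658 TPM in DMSO footprints, with 258, 193 and 321 TPM of input. The footprints of the PRMT4 label were level with DMSO (0.02) although its input was the lowest of the 3 (-0.36). MYH9, the heavy chain of non-muscle myosin IIA (ENSG00000100345.20_2, chromosome 22), stood at 8.79, 12.0 and 15.7 TPM of footprints and 19.9, 25.2 and 27.1 TPM of input. Its footprint ratios were -0.62 and -0.35. Its input ratio of 0.27 for the PRMT4 label lay at -0.10 without centring, so no direction is given for it.

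**Figure D2:**
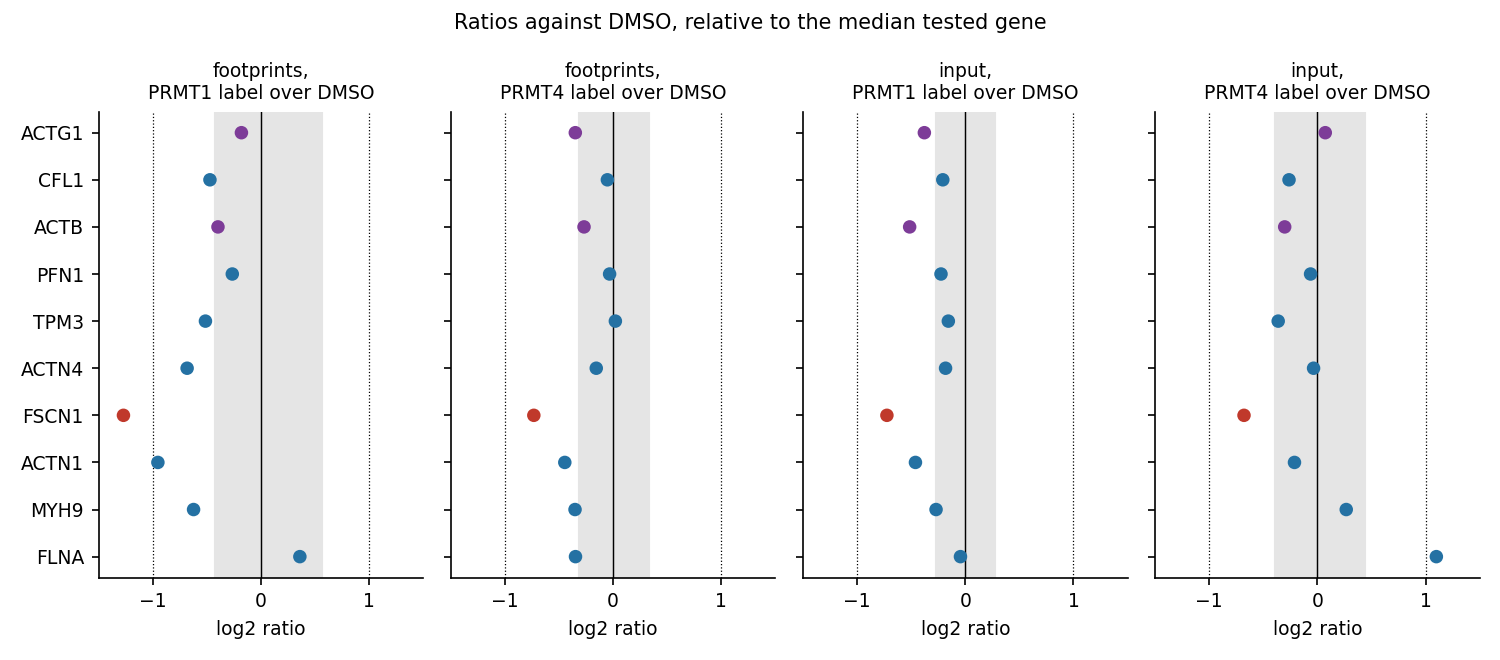
Log2 ratio over DMSO, relative to the median tested gene, of the 10 genes in footprints and input for each inhibitor label; the grey band spans the 10th to the 90th percentile of the 9040 tested genes, dotted lines mark 2-fold, and FSCN1 is red, the actins purple and the other binders blue. FSCN1 is leftmost in all 4 panels, at -1.27, -0.73, -0.72 and -0.68, and FLNA in the input labelled PRMT4 inhibitor stands at 1.10.

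The 10 genes had a median log2 ratio of -0.49 in footprints labelled PRMT1 inhibitor and -0.31 in those labelled PRMT4 inhibitor, with 9 of 10 below 0 in each. The exceptions were FLNA in the first and TPM3 in the second. In input the medians were -0.25 for the PRMT1 label, with all 10 below 0, and -0.14 for the PRMT4 label, with 7 of 10 below 0. Rescaling to nuclear protein-coding genes put some ratios near 0 on the other side of it: FLNA at 0.02 in the input labelled PRMT1 inhibitor, PFN1 at 0.02 and ACTN4 at 0.04 in that labelled PRMT4 inhibitor, and CFL1 at 0.01 and PFN1 at 0.04 in footprints labelled PRMT4 inhibitor. FSCN1 was the one member at least 2-fold lower in footprints labelled PRMT1 inhibitor, where 0.575% of tested genes were that low and where the gene had been picked. Without centring ACTN1 was 2-fold lower there as well (-1.10), a setting in which 3.47% of tested genes were 2-fold apart in either direction. No member was 2-fold apart in footprints labelled PRMT4 inhibitor, against 0.896% of tested genes, or in the input labelled PRMT1 inhibitor, against 0.819%. FLNA was the one member at least 2-fold higher in the input labelled PRMT4 inhibitor, against 1.98% of tested genes. Without centring it was FSCN1 that was 2-fold apart there (-1.04), against 3.1% of tested genes in either direction.

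FSCN1 lay below all 7 other binders in each of the 4 comparisons with DMSO. Its distance from their median was -0.76 in footprints labelled PRMT1 inhibitor, -0.58 in those labelled PRMT4 inhibitor, -0.52 for the input with the PRMT1 label and -0.62 for the input with the PRMT4 label. The other binders themselves ranged from -0.95 (ACTN1) to 0.36 (FLNA) in footprints labelled PRMT1 inhibitor.

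Translation efficiency, the footprint level over the input level of the same label, showed FSCN1 less apart. Its log2 ratio over DMSO was -0.55 for the PRMT1 label and -0.07 for the PRMT4 label, against medians of -0.36 and -0.13 for the 7 other binders. ACTN4 at -0.50 and ACTN1 at -0.50 stood beside FSCN1 for the PRMT1 label, and 420 tested genes had a lower value than FSCN1. With the input of the other inhibitor label as denominator, FSCN1 stood at -0.61 and -0.02, and its distance from the other binders for the PRMT1 label was 0.05 in place of -0.19. ACTN1 then stood at -0.76 and ACTN4 at -0.66 for the PRMT1 label. For the PRMT1 label FSCN1 was thus below 0 with either input, but the lowest of the binders only with its own.

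For the PRMT1 label no member was 2-fold apart in translation efficiency, against 4.12% of tested genes. For the PRMT4 label FLNA was at least 2-fold lower (-1.46), against 2.13% of tested genes, but stood at -0.31 over the other input. FLNA for the PRMT1 label stood at 0.40 over its own input and at -0.76 over the other. ACTG1 stood at 0.19 and -0.27 for the PRMT1 label, and at -0.43 and 0.02 for the PRMT4 label. MYH9 stood at -0.36 and -0.91 for the PRMT1 label, and at -0.63 and -0.09 for the PRMT4 label. The median of the 10 genes was -0.31 for the PRMT1 label and -0.44 with the other input, and -0.10 and 0.02 for the PRMT4 label. The median of the PRMT1 label was the lower one with either pairing, while ACTB, ACTG1, FLNA and MYH9 were higher for the PRMT1 label over their own input. With the inputs exchanged each of these genes was lower for the PRMT1 label, at -0.34, -0.29, -0.44 and -0.81 between the labels.

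**Figure D3:**
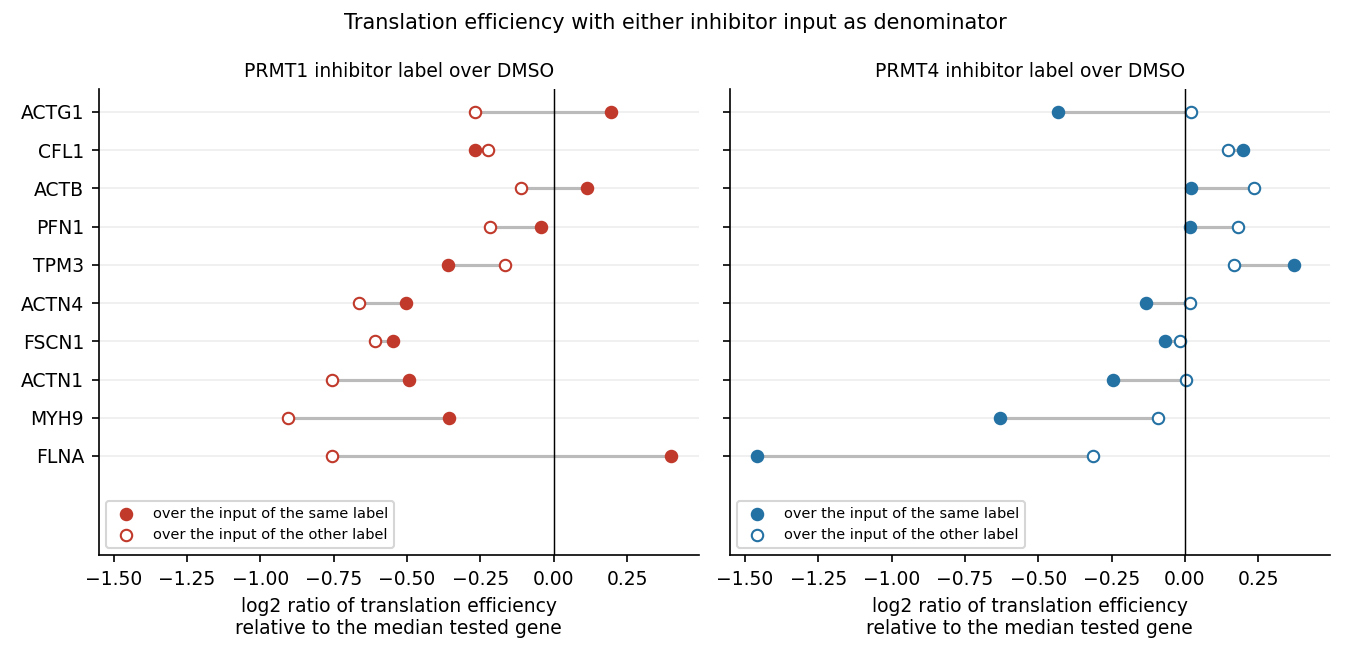
Log2 ratio of translation efficiency over DMSO, relative to the median tested gene, for each gene and inhibitor label; filled points use the input of the same label, open points the input of the other inhibitor label, and a line joins the pair. FSCN1 moves little (-0.55 and -0.61 for the PRMT1 label), while FLNA lies on either side of 0 (0.40 and -0.76).

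The inhibitor labels were also set against each other, without DMSO. In footprints 8 of 10 genes were lower under the PRMT1 label than under the PRMT4 label, with a median log2 ratio of -0.34. FSCN1 (-0.53), TPM3 (-0.53), ACTN4 (-0.52) and ACTN1 (-0.50) lay close together, so FSCN1 did not stand apart from the other binders there. The exceptions were ACTG1 (0.18) and FLNA (0.71). The sum of ACTB and ACTG1 stood at 0.08, with ACTB itself at -0.12. No member was 2-fold apart in footprints, against 3.56% of tested genes. In input FLNA alone was at least 2-fold lower under the PRMT1 label (-1.13), against 1.03% of tested genes. It was under 2-fold with a pseudocount of 5 TPM (-0.89), without centring (-0.94), with no filter (-0.95) and when adjusted for GC content and length (-0.76). FSCN1 stood at 16.1 against 14.3 TPM between the inputs (-0.03). That ratio was 0.16 without centring and 0.22 when adjusted for GC content and length. In translation efficiency FLNA was at least 2-fold higher under the PRMT1 label (1.85), against 6.99% of tested genes, and at -0.44 with the inputs exchanged.

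Promoters bear on genes of this group because SRF binds a short motif, the CArG box, made of 2 C, a run of 6 A or T and 2 G. The RefSeq table, on build GRCh38.p14, held 13 start sites for 8 of the 10 genes, and the promoters of ACTB and FSCN1 were not examined. Each entry has 250 bases before and 50 after the start. ACTG1, FLNA and 1 of the starts of ACTN1 held a match, read on either strand since the motif is its own reverse complement. Across all genes listed, 454 of 35116 promoters (1.29%) held one. In ACTG1 and FLNA the match began 94 bases before the start. Both promoters are shown, with the match in capitals, because they hold the same motif at the same distance from the start, while the levels of the genes differ widely.
ACTG1, chr17:81512750-81513049, minus strand: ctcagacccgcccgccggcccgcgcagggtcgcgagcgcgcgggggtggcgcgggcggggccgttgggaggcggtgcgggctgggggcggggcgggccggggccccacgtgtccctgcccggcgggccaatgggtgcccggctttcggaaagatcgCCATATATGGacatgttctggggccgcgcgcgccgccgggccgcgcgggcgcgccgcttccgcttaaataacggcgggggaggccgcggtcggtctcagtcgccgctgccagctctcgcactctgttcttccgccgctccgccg
FLNA, chrX:154374585-154374884, minus strand: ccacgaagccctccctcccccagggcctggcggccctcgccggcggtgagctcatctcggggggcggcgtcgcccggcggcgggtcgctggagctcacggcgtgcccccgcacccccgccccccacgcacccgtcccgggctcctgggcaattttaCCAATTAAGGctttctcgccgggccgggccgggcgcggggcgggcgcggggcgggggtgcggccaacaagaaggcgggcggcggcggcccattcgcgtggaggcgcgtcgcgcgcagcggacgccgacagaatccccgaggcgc
In the input labelled PRMT4 inhibitor ACTG1 stood at 0.07, FLNA at 1.10 and ACTN1 at -0.21. Of the genes examined with no match, MYH9 stood at 0.27, ACTN4 at -0.04, PFN1 at -0.06, CFL1 at -0.26 and TPM3 at -0.36. As said above, no direction is given for ACTG1 or MYH9 in that input. In footprints labelled PRMT1 inhibitor the matched genes ACTG1, FLNA and ACTN1 stood at -0.18, 0.36 and -0.95, from the highest of the group to the second lowest. A match is a description of the letters and not a site in use. SRF itself stood at 4.30, 4.05 and 5.09 TPM in footprints of PRMT1 label, PRMT4 label and DMSO and at 6.85, 7.30 and 8.47 TPM in input. Its log2 ratios over DMSO lay between -0.26 and 0.17.

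A wider list of 137 actin pathway genes, of which 99 passed the filter, was compared in the same way. In footprints labelled PRMT1 inhibitor its median was -0.14, with 67 of 99 below 0, and 2 were at least 2-fold lower, against 0.575% of tested genes. They were the bundler PLS1, plastin 1, at 7.72 against 18.7 TPM (-1.03), and the spectrin-binding adducin ADD3 at 18.6 against 42.3 TPM (-1.002). ADD3 thus lay almost on the threshold. None was 2-fold higher, against 3.25%. A pseudocount of 5 TPM took both below 2-fold. By role, the lowest median belonged to bundling and crosslinking proteins (-0.43), in which 11 of 13 were below 0, with SPTAN1, α-spectrin, highest at 0.49. All 9 subunits of the Arp2/3 complex, which starts branched filaments, were below 0 (median -0.25), from ARPC1B at -0.69 to ARPC5L at -0.13. Capping and severing proteins had a median of -0.25, from ADD3 to the tropomodulin TMOD2 (0.35).

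The other roles lay nearer to the median tested gene. Monomer binding and turnover factors had a median of -0.13, from the twinfilin TWF2 (-0.49) to the cofilin kinase TESK1 (0.81). Membrane and adhesion links had one of -0.07, from ENAH (-0.66), which protects growing filament ends, to PDLIM7 (0.61). Non-muscle myosins and tropomyosins also stood at -0.07, from the class I myosin MYO1E (-0.87) to the light chain MYL6B (0.81), and nucleation promoters and formins at 0.00, from WASF3 (-0.40) to WASHC1 (0.70). SRF and its cofactors had a median of -0.02, from SRF (-0.05) to MRTFA (0.35). WASHC1 has near-identical copies, which makes its value uncertain.

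**Figure D4:**
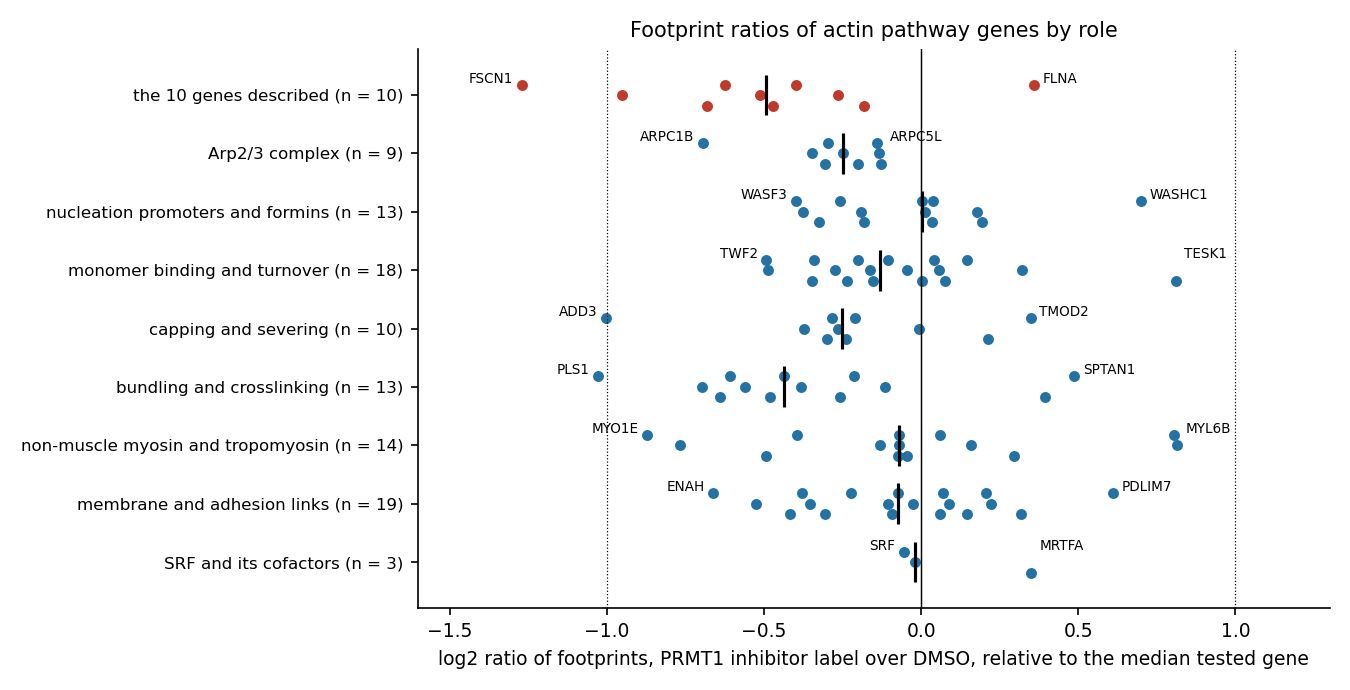
Log2 ratio of footprints, PRMT1 inhibitor label over DMSO, relative to the median tested gene, for the 10 genes (red) and for the wider actin pathway by role (blue); each point is 1 gene, black bars are list medians and dotted lines mark 2-fold. The medians run from -0.49 for the 10 genes and -0.43 for bundling and crosslinking proteins to 0.00 for nucleation promoters and formins.

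In the remaining comparisons with DMSO the wider list had medians of -0.05 in footprints labelled PRMT4 inhibitor, -0.04 for the input with the PRMT1 label and -0.13 for the input with the PRMT4 label, with no gene 2-fold apart, against 0.896%, 0.819% and 2.44% of tested genes. The Arp2/3 subunits had an input median of 0.02 for the PRMT1 label and -0.27 for the PRMT4 label, and a footprint median of -0.05 for the PRMT4 label. In translation efficiency for the PRMT1 label the list median was -0.13, or -0.01 over the other input, and no gene was 2-fold apart, against 4.12% of tested genes. For the PRMT4 label the median was 0.10, or 0.01 over the other input, and no gene was 2-fold apart, against 2.94% of tested genes. Between the labels, TESK1 (1.21) and the motor MYO9B (1.06) were at least 2-fold higher in footprints of the PRMT1 label, at 9.72 against 4.13 TPM and 6.78 against 3.14 TPM, against 3.12% of tested genes. In translation efficiency between the labels, PLS1 was at least 2-fold lower (-1.47), against 2.8% of tested genes, and TESK1 (1.71), CYFIP2 (1.19) and MYO9B (1.13) were at least 2-fold higher, 3 of 99 against 6.99% of tested genes. With the inputs exchanged none of the 4 was 2-fold apart: MYO9B stood at 0.97, TESK1 at 0.69, PLS1 at -0.29 and CYFIP2 at -0.30.

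The genes whose pattern was most like that of FSCN1 were sought among 3599 other protein-coding genes with a symbol and a mean TPM of at least 20. Likeness was the Euclidean distance over the 6 libraries of log2 levels, each relative to the library's median and to the gene's own mean over the 3 libraries of a kind. The nearest were PRPS2, an enzyme that makes the ribose precursor of nucleotides (0.241), CCND1, cyclin D1 (0.311), the scaffold NHERF2 (0.325), the ubiquitin-activating enzyme UBA1 (0.329) and the replicative helicase subunit MCM7 (0.344). PRPS2 stood at 60.1 TPM in footprints labelled PRMT1 inhibitor, 88.8 TPM in those labelled PRMT4 inhibitor and 148 TPM in DMSO footprints, and at 19.0, 14.1 and 29.3 TPM in input. Among the other actin genes ACTN1 was nearest, at place 14 (0.413), followed by ACTB at place 247 and ACTN4 at place 262. FLNA and MYH9 were under the level required.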

How the data were processed

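Per the labels' protocols, RNase I digestion of lysates preceded a sucrose gradient, and the monosome fragments went into small RNA libraries. All libraries, inputs included, carry a description as ribosome-protected, and the sources used here do not describe how input RNA was made. The authors deposited 1 table of TPM with 1 column per library. Build GRCh37.p13 and the tools RSEM 1.2.22, STAR 2.4.2a, Bowtie 1.1.2 and cutadapt 1.18 appear in the submitters' processing notes, without the role of each.

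Of 60461 identifiers, 41 copies from the Y pseudoautosomal region, all at 0, were dropped. Symbols were found for 55725 of the rest. Gene types, transcript length and GC content came from GENCODE release 29, which is on a later build, so no gene coordinates are given. Ratios were log2((TPM + 1)/(TPM + 1)), centred on the median of the 9040 genes whose mean TPM reached 5, using Python 3.11.15, numpy 2.4.6, pandas 2.3.3 and statsmodels 0.14.6, and the procedure was tested on simulated data. With 1 library per group there are no replicates and no p-values. The medians removed were -0.16 and -0.37 in input and -0.15 and -0.01 in footprints, for the PRMT1 and PRMT4 labels over DMSO. Counts are of genes at least 2-fold apart. Members and lists were chosen with earlier results of these data known. Genes named outside the 10 were those of the pathway lists past 2-fold in a comparison involving an inhibitor, each list's extremes in footprints labelled PRMT1 inhibitor, and the 5 nearest to FSCN1. The related fascins and the pseudogenes of FSCN1 and ACTN4 were added after values were seen. Some genes of the pathway lists are not reported here and were left out of their counts. Alternatives were pseudocounts of 0.1 and 5 TPM, no centring, a minimum mean TPM of 1 or none, rescaling to nuclear protein-coding genes (given without centring), a lowess trend, adjustment for GC content and length, and exchanged inhibitor inputs.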

Additional observations from a re-analysis of the deposited data

How the results depend on the processing

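No paired analysis was possible because each group holds 1 library. With no replicate spread, a value was taken as moved where it changed by more than 1.5-fold. Of 1126 alternative values, 1081 stayed within that and 70 had another sign, mostly of ratios near 0. That tolerance is wider than most of the ratios themselves, so the 1081 was largely set by it and says little about how firm a value is. No median removed exceeded 0.37 in size, which is under 1.5-fold, so leaving out centring could not mark any gene's ratio as moved. The group median of translation efficiency for the PRMT4 label went from -0.10 to 0.27 without counting as moved. FSCN1 over DMSO was below 0 in 47 of 50 alternatives, ranging from -1.42 to -1.14 in footprints labelled PRMT1 inhibitor and from -0.75 to -0.65 in those labelled PRMT4 inhibitor. The exceptions were its translation efficiency for the PRMT4 label without centring (0.31), with no filter (0.28) and when adjusted for GC content and length (0.16). The count of 47 is no support for FSCN1 being low. The gene was picked for its footprints labelled PRMT1 inhibitor, and the alternatives reuse the same libraries. Its footprint and input ratios were also larger in size than any median removed, so leaving out centring could not change their sign.

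Members at least 2-fold apart numbered 2 in footprints labelled PRMT1 inhibitor without centring, against 3.47% of tested genes. They also numbered 2 there at a mean TPM of at least 1 and with no filter. They numbered 0 in the input labelled PRMT4 inhibitor with a pseudocount of 5 (1.25% of tested genes) and when adjusted for GC content and length. For translation efficiency of the PRMT4 label over the other input they numbered 0. Between the labels they numbered 0 in input with a pseudocount of 5 (0.907%), no centring (2.06%), no filter or that adjustment. In translation efficiency between the labels they numbered 2 without centring (13.7%) or filter and 0 with exchanged inputs. For DMSO footprints over input the lowess trend left 1, and rescaling put the group median at 0.16 and FLNA past 2-fold lower (-1.46). Where no share stands beside a member count here, the share of all tested genes was not computed, and the count cannot be set against it. FLNA in translation efficiency between the labels was at -0.44 with exchanged inputs, the reverse of 1.85. Pathway genes 2-fold apart numbered 3 of 99 in the input labelled PRMT4 inhibitor and 2 in its translation efficiency without centring, where 3.1% and 4.69% of all tested genes were. In footprints labelled PRMT1 inhibitor they numbered 0 with a pseudocount of 5 (2.13% of tested genes), as they did in footprints between the labels (1.91%). In translation efficiency, with a pseudocount of 0.1, they numbered 2 for the PRMT1 label (5.54% of tested genes) and 7 between the labels (12.3%). Without centring they numbered 19 between the labels (13.7%), where the -0.35 otherwise removed is added to every gene alike. The cause was not tested. Depth is unknown, so counting error of the low genes, FLNA first, could not be given.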

Other observations

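Pseudogenes named after their parent were summed for 5 of the genes, while pseudogenes with clone names, some of which share windows with TPM3 and other members, were not. The 11 numbered pseudogenes of ACTB summed to 0.77, 0.93 and 0.92 TPM in footprints of PRMT1 label, PRMT4 label and DMSO, and the 21 of ACTG1 to 3.51, 3.90 and 3.43 TPM. In input, pseudogenes of ACTG1 summed to 6.90, 6.60 and 7.54 TPM, those of TPM3 to 5.09, 5.34 and 6.11 TPM, those of CFL1 to 3.14, 3.61 and 3.31 TPM and those of PFN1 to 0.59, 0.55 and 0.67 TPM. The TPM3 pseudogenes came to 1.97%, 2.76% and 1.90% of TPM3 in input, the highest shares of the 5 parents.

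Of the muscle and other actins, ACTA1, ACTC1, ACTG2 and ACTBL2 stayed at or below 0.41 TPM. ACTA2, smooth muscle actin, stood at 7.79, 2.68 and 3.27 TPM in footprints of PRMT1 label, PRMT4 label and DMSO and at 1.74, 4.23 and 2.30 TPM in input. It was highest in the footprints labelled PRMT1 inhibitor and, among inputs, in that labelled PRMT4 inhibitor. FLNA was highest in the same libraries, and so were TESK1 and PDLIM7 of the wider list, among others. The pattern is therefore not particular to ACTA2 and FLNA. Its share among all genes was not counted, and over the tested genes the labels' differences in footprints and input ran against each other. ACTA2 was under the filter and was named after its values were seen.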
